A study of Homo sapiens with 4 samples.

Results

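Antisense long non-coding RNA genes are transcribed from the strand opposite another gene and were taken here as the 490 antisense genes of GENCODE release 29 with a mean of at least 1 FPKM over the 4 libraries, out of 3645 antisense genes and 43450 gene IDs in the deposited table. FPKM counts fragments relative to transcript length and to the size of the library. Members were chosen by their mean level over all 4 libraries, so levels are a description, and the rule itself does not use the knockdown contrast. The libraries came from polyadenylated RNA of BLaER1, a human leukaemia line of B lineage in which a C/EBPα transgene can be switched on to give macrophage-like cells. Control replicates 0 and 1 were compared with HAL7 knockdown replicates 0 and 1. Knockdown cells were given 3 LNA GapmeRs against HAL7 in the medium, GapmeRs being antisense oligonucleotides through which RNase H cuts a paired RNA. The sources used here do not give the treatment of the control cells, its duration, or whether replicates were separate cultures, so p-values reflect no more than how far these libraries differ within a group, and that spread may be technical. All 10 B lineage markers looked up were present, at means of 6.28 to 1452 FPKM, against 2 of 7 macrophage and monocyte, 1 of 7 T and NK, 0 of 3 erythroid and 1 of 3 fibroblast markers at 1 FPKM or more. The T and NK marker at that level was NKG7, a cytotoxic granule gene, at 27.5, 27.0, 21.9 and 17.2 FPKM in control replicates 0 and 1 and knockdown replicates 0 and 1, and the other 6 together reached at most 0.157 FPKM in a library. Which cells held the NKG7 RNA was not tested. Of 8 macrophage and monocyte markers looked up, 7 were found. The highest was CSF1R, at 36.3, 34.8, 33.8 and 38.0 FPKM in the same order, and the others together reached at most 3.61 FPKM.

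An antisense transcript can start head-to-head with a coding gene from a common promoter region, run tail-to-tail into its end, or lie inside it. As used below, head-to-head means that a member starts inside a coding gene that it overlaps in part. The distance to that gene's start was not limited, so such a pair need not share a promoter region. Such RNAs are known as candidates for acting on their own locus, through transcription across it or through pairing with the sense RNA, and several are host genes of small nucleolar RNAs or microRNAs. HAL7 belongs to the same class. In a library without strand marking, a read from an exon that both strands share cannot be assigned to either gene, and strand-specific counting is not stated for these libraries.

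The DNA around the start of 4 members is shown because each window also holds the start of a coding gene on the other strand, which makes the pair divergent. They are the 2 of highest level and the 2 of smallest unadjusted p among the members with such a window that could be shown, a choice made with their values known. Members not shown include some of smaller unadjusted limma p that start within 1 kb of an opposite coding start. AC079807.1, at 0.0067, and AC090152.1, at 0.016, are among them. The windows are RefSeq sequences on GRCh38.p14, from 250 bases before to 50 after the member's RefSeq start, written on the member's strand. Capitals mark the stretch from the coding gene's GENCODE start to the member's RefSeq start, 217, 28, 249 and 32 bases in the order shown. With GENCODE starts for both genes the distances were 248, 858, 251 and 43 bases in the same order. The short stretch between AC009133.1 and MVP thus holds for the RefSeq start only.
ZFAS1 with ZNFX1, chr20:49278392-49278691, plus strand: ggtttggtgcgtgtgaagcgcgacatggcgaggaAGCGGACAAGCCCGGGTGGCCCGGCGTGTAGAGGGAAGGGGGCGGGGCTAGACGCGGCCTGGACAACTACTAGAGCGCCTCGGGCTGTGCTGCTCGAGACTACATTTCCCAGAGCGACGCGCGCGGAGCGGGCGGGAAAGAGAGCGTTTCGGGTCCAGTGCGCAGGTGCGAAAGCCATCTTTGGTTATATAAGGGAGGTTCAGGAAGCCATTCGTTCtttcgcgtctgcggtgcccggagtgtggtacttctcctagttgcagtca
AC009133.1 (MVP-DT) with MVP, chr16:29820318-29820617, minus strand: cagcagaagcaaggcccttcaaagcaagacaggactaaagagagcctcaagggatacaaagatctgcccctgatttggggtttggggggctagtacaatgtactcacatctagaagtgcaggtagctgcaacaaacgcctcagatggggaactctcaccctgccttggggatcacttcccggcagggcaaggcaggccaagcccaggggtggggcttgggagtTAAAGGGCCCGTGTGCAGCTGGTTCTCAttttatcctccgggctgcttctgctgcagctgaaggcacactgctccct
PSMA3-AS1 with ARID4A, chr14:58298088-58298387, minus strand: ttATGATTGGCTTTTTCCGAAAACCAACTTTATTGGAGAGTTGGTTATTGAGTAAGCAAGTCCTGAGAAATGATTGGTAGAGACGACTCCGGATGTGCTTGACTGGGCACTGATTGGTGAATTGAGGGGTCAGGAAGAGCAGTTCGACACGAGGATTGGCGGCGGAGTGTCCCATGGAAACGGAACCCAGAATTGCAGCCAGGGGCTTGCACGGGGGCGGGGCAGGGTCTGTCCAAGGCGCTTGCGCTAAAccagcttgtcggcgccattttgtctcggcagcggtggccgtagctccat
PITPNA-AS1 with INPP5K, chr17:1516669-1516968, plus strand: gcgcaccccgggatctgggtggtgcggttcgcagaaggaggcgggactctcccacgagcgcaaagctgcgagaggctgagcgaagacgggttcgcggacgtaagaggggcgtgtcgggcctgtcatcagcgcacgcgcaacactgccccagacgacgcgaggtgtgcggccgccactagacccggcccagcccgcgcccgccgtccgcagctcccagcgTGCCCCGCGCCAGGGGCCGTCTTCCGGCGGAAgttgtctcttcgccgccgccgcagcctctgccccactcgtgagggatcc

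The divergent pairs differed widely in level. ZFAS1, a host of small nucleolar RNAs, had 1003, 1135, 1123 and 1117 FPKM in control replicates 0 and 1 and knockdown replicates 0 and 1, and ZNFX1, a zinc finger helicase gene, had 8.40, 8.34, 7.99 and 8.82 FPKM. AC009133.1 had 78.5, 81.0, 81.0 and 81.7 FPKM, while MVP, the major vault protein gene, had 7.18, 7.91, 6.52 and 5.65 FPKM. In MVP both knockdown libraries lay below both control libraries, with a log2 change of -0.27 and a limma adjusted p of 0.23, and in AC009133.1 the log2 change was 0.03. PSMA3-AS1 had 25.4, 25.2, 29.4 and 27.5 FPKM, with both knockdown libraries above both controls and a limma adjusted p of 0.25. ARID4A, a chromatin factor gene, had 17.0, 17.8, 18.0 and 16.3 FPKM, with overlapping groups. PITPNA-AS1 had 14.4, 13.3, 12.5 and 11.5 FPKM, with both knockdown libraries lower and a limma adjusted p of 0.25. INPP5K, a phosphoinositide phosphatase gene, had 9.33, 10.2, 9.88 and 10.8 FPKM, with overlapping groups. Its log2 change was 0.07 and that of PITPNA-AS1 -0.20.

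Of the members, 148 started within 1 kb of the start of a coding gene on the other strand, and 132 of those coding genes were tested. RefSeq windows of 300 bases were matched by symbol, strand and chromosome for 188 members. Of these, 43 windows held the GENCODE start of the opposite coding gene, at a median of 83 bases from the member's RefSeq start. Member windows held a median of 23 CG dinucleotides against 14 over all 35116 windows. Members had passed a cut on level, and no set of windows matched to them in level was compared. The GC box GGGCGG was found on either strand in 55.9% of member windows, 68.1% of the 94 windows of members with a coding start within 1 kb, and 45.0% of all windows. The ETS core CGGAAG was in 28.7%, 36.2% and 19.5% in the same order, CCAAT in 36.2%, 38.3% and 34.6%, and TATAAA in 6.91%, 4.26% and 11.5%. Both strands were searched, matches of different motifs may overlap, and a match is a description of letters. The ZFAS1 window holds GGGCGG, that of PSMA3-AS1 holds CCAAT and GGGCGG, and that of PITPNA-AS1 holds CGGAAG.

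Most members were low. Their mean levels had a median of 3.02 FPKM and quartiles of 1.63 and 7.13 FPKM, against a median of 14.6 FPKM over 11133 coding genes and 2.5 FPKM over 213 lincRNA genes passing the same cut. Of the members, 86 reached 10 FPKM and 4 reached 100 FPKM. None of the 490 was listed at 0 in any library. Together they made up 0.570% to 0.610% of the summed FPKM of a library. Just inside the cut lay LINC00852, AC006146.1 and AC138028.2 at means of 1.01, 1.02 and 1.02 FPKM, and just outside it PAXIP1-AS2, AC004943.2 and SAP30L-AS1 at 0.998, 0.994 and 0.993 FPKM. In 19 members the mean of 1 group was under 1 FPKM, so that they passed through the other group.

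**Figure D1:**
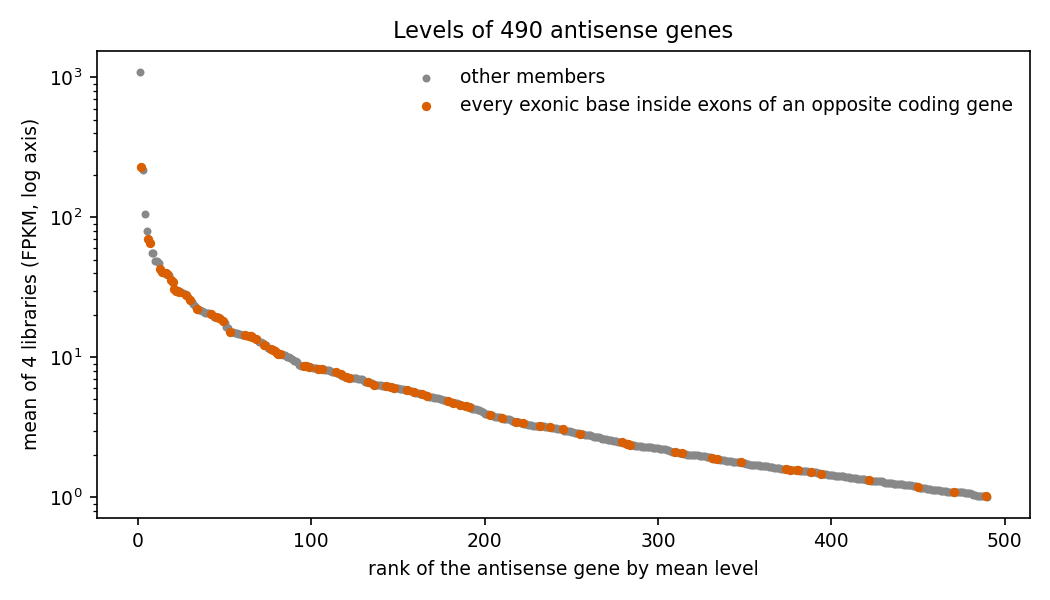
Mean level of each of the 490 antisense genes (FPKM, log axis) against its rank. Each point is 1 gene, and coloured points are the 83 genes whose exonic bases all lie inside exons of opposite-strand coding genes. Of the 50 highest genes, 20 are of this kind.

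The 12 highest members included 3 host genes of small nucleolar RNAs, of which ZFAS1 is given above. SNHG7 had 233, 233, 196 and 207 FPKM in control replicates 0 and 1 and knockdown replicates 0 and 1, and SNHG12 had 105, 119, 96.5 and 102 FPKM. In both genes the knockdown libraries lay below the control libraries, with limma adjusted p of 0.20 and 0.31. With the GC trend removed the log2 change of SNHG7 moved from -0.21 to -0.09, and without control replicate 1 that of SNHG12 moved from -0.17 to -0.08. Over all 8 members with a small nucleolar RNA gene on the same strand within their span, 4 had positive and 4 negative log2 changes. Besides AC009133.1, a further divergent gene was among the 12. THAP9-AS1, which lies head-to-head with the transposase-like gene THAP9, had 53.3, 55.1, 57.6 and 55.8 FPKM against 3.68, 4.13, 3.51 and 3.50 FPKM in THAP9.

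The other 7 lay within coding genes and shared from 65.2% to all of their exonic bases with exons on the other strand. AL160408.2 had 234, 245, 234 and 205 FPKM, and all of its 693 exonic bases lay in exons of IRF2BP2, a transcriptional corepressor gene, 561 of them in coding sequence. IRF2BP2 itself had 55.1, 51.5, 64.1 and 52.6 FPKM, under the level given for its antisense gene. AL133415.1, inside the vimentin gene VIM, had 49.9, 48.8, 49.5 and 47.1 FPKM, with 87.7% of its exonic bases in VIM exons, and VIM had 601, 574, 560 and 548 FPKM. AC125611.3 had 51.9, 48.1, 46.5 and 47.7 FPKM, with 97.9% of its exonic bases in exons of the alpha-tubulin gene TUBA1C, at 25.8, 23.9, 23.6 and 24.4 FPKM. AL590133.2 inside the ceramide synthase gene CERS2 had a mean of 65.6 FPKM, AL928654.2 inside the chromatin factor gene MTA1 55.8 FPKM, and AP002490.1 inside the spindle protein gene NUMA1 47.3 FPKM. In these 3 the log2 changes were -0.0015, -0.07 and -0.05.

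Levels were compared by how much of a member's exons lies inside coding exons, as a description with no test. In 83 members every exonic base lay in exons of opposite-strand coding genes, and in 53 of these all of the bases lay outside the partner's coding sequence. These 83 had a median level of 7.16 FPKM. The 44 members with 75% to under 100% of exonic bases shared had 5.86 FPKM, the 133 with 25% to under 75% had 2.44 FPKM, the 140 with less had 2.58 FPKM, and the 90 that shared none with opposite coding exons had 2.27 FPKM. The 65 members that shared no exonic base with any annotated gene, the group to which HAL7 would belong, had a median of 2.04 FPKM. How much of a level came from reads of the other strand was not tested.

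**Figure D2:**
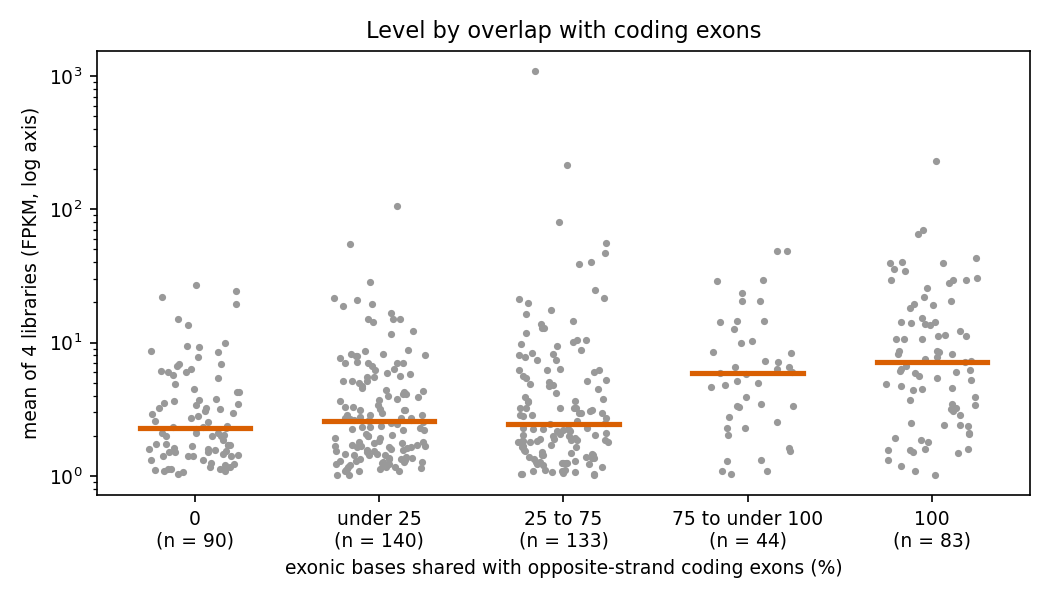
Mean level of each antisense gene (FPKM, log axis) by the share of its exonic bases that lie in exons of opposite-strand coding genes. Points are genes, and thick lines are medians, from 2.27 FPKM in the 90 genes with none shared to 7.16 FPKM in the 83 genes with all shared.

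Depth was read from the steps of low values in 1215 long genes with 1 transcript. It came to 60.1, 127, 107 and 95.4 fragments for each FPKM and kilobase in control replicates 0 and 1 and knockdown replicates 0 and 1, with 83.5% to 90.1% of the low values within 0.15 of a whole multiple. The 253 members with 1 annotated transcript then had a median of 150, 310, 265 and 251 fragments in the same order. Correlations between libraries over the members on the log2(FPKM + 1) scale ran from 0.983 to 0.988, and the members share depth and library with all other genes. Control replicate 0 was the least deep library. Transcript GC content had a Spearman rho of -0.21 with the log2 change over the 490 members and -0.41 over 12499 genes.

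HAL7, the targeted gene, was listed at 0.726 and 0.613 FPKM in the control and 0.475 and 0.347 FPKM in the knockdown libraries. Both knockdown libraries lay below both control libraries, with a limma adjusted p of 0.32. Groups did not overlap in 50.3% of all genes tested. The HAL7 values stood for about 31.7 and 56.7 fragments in control and 37.0 and 24.0 fragments in knockdown libraries, in the order of the replicates. With a mean of 0.540 FPKM it falls under the cut. The gene (ENSG00000228427.1) has exons at 71183559 to 71184017 and 71197909 to 71198175 on the minus strand of chromosome X in GRCh38. In GENCODE 29 no other gene shares its exonic bases, and no other gene overlaps its span. In bulk RNA, fewer cells of a type and less RNA per cell cannot be told apart, here and in the comparisons that follow.

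Across the knockdown, 0 of the 490 antisense genes passed limma's test at an adjusted p of 0.05, a call that 0.0309% of the 12935 genes tested reached. At an unadjusted limma p under 0.05 there were 65 members, 36 higher and 29 lower, or 13.3%. Over all genes tested 16.6% were called at that level, 7.25% higher and 9.35% lower. Among lincRNA genes 18.3% and among coding genes 16.8% had an unadjusted limma p under 0.05. With quantile normalization the members' split was 45 higher and 23 lower, or 13.9% of members against 16.6% of all genes tested. With the GC trend removed it was 44 and 25, or 14.1% against 13.9%, so the members' share is not below that of all genes in every setting. The 2 groups did not overlap in 202 members, or 41.2%, of which 104 were higher and 98 lower in knockdown libraries, against 50.3% of all genes tested.

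The median log2 change of the members was -0.0014, against -0.0090 over all genes tested, -0.02 over lincRNA genes and -0.0092 over coding genes. Positive values stood in 243 members, or 49.6%, against 46.8% of all genes tested, and negative ones in 247. The median size of change without regard to sign was 0.101 in members, 0.0981 in lincRNA genes and 0.0769 in coding genes, which were more abundant. A knockdown-to-control ratio above 1.5 was found in 7 members, or 1.43%, against 0.572% of all genes tested. A ratio below the inverse of 1.5 was found in 6, or 1.22%, against 0.680% of all genes tested. Among lincRNA genes the shares were 0.469% and 0.939%. Some members met the cut only through the group where they were high, AC096677.1 and AP001107.4 among them. The cut can thus add to these shares, which are a description.

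**Figure D3:**
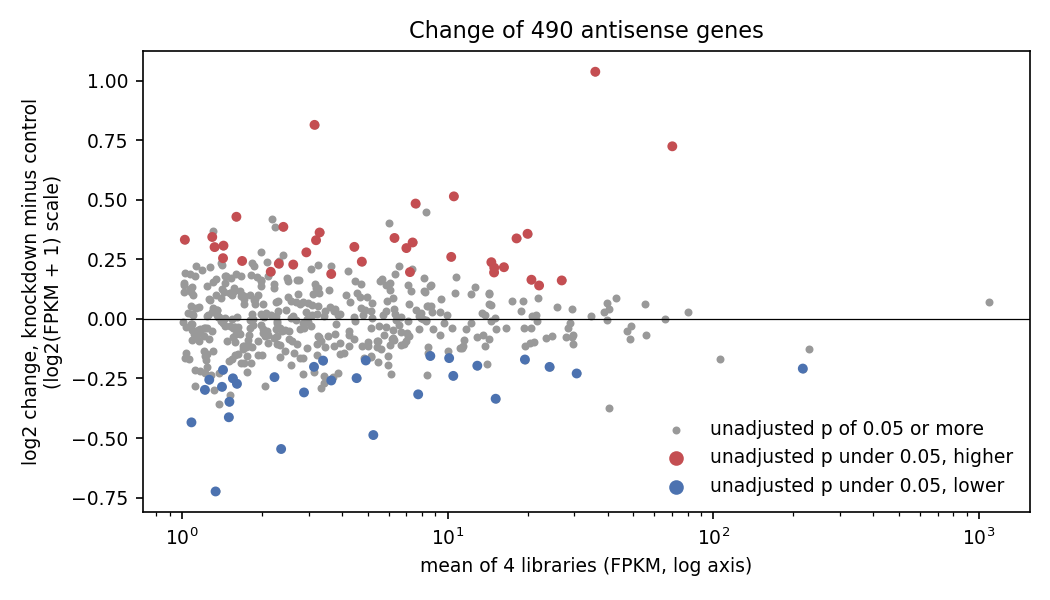
Log2 change of each of the 490 antisense genes in knockdown against control libraries (log2(FPKM + 1) scale) against its mean level (FPKM, log axis). Coloured points are the 36 higher and 29 lower genes at an unadjusted limma p under 0.05, and 0 passed after adjustment.

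Of the 8 lower members of smallest p, AC096677.1 and AP001107.4 had knockdown means under 1 FPKM and so met the cut through the control group, where they were high. The smallest p belonged to AC096677.1, now named CSRP1-AS1, which lies head-to-head with CSRP1, a gene for a LIM domain protein, on chromosome 1 from 201507241 to 201534784. It had 2.13 and 1.69 FPKM in control and 0.636 and 0.891 FPKM in knockdown libraries. Both knockdown libraries were low, at about 103 and 129 fragments against 195 and 327 in the control libraries. The ratio was 0.399 and the log2 change -0.72 ± 0.12 (SE), with a limma adjusted p of 0.19. CSRP1 had 18.5 and 18.4 FPKM in control and 16.8 and 17.7 FPKM in knockdown libraries, a log2 change of -0.09. Of the exonic bases of AC096677.1, 11.3% lie in exons of CSRP1.

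HSPC324 overlaps the span of EGFL7, which encodes a secreted protein of endothelial cells, and shares no exonic base with any annotated gene. It had 3.01 and 2.95 FPKM in control and 2.08 and 1.41 FPKM in knockdown libraries, and limma gave an adjusted p of 0.19. EGFL7 had 25 and 23.3 FPKM in control and 19.3 and 19.7 FPKM in knockdown libraries, and limma gave an adjusted p of 0.19. Both knockdown libraries were below both control libraries in each gene of this pair. AC010260.1, inside SERINC5, a gene for a membrane protein that restricts retroviruses, had 8.74 and 8.66 FPKM in control and 7.26 and 6.34 FPKM in knockdown libraries. SERINC5 had 40.6 and 39.2 against 35.6 and 32.5 FPKM, again lower in both knockdown libraries, and 39.3% of the antisense gene's exonic bases lie in its exons. The limma adjusted p was 0.20 for AC010260.1 and 0.21 for SERINC5.

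The other members of smallest p on this side included genes with and without an opposite coding partner. AP001107.4, inside the kinesin light chain gene KLC2, had 1.34 and 1.46 against 0.881 and 0.671 FPKM, and KLC2 had a log2 change of -0.12. AC079807.1, head-to-head with the F-box protein gene FBXO11, had 1.71 and 1.92 against 1.22 and 1.19 FPKM, and FBXO11 had a log2 change of 0.06. AC109466.1, now LINC03000, overlaps no coding gene on the other strand and had 1.91 and 1.80 against 1.06 and 1.23 FPKM. MAFA-AS1, which lies near the transcription factor gene MAFA without overlapping any annotated gene, had 25.9 and 26 against 22.8 and 22.1 FPKM. In each of these 4 antisense genes both knockdown libraries lay below both control libraries, with limma adjusted p of 0.19 to 0.20. TRPM2-AS, named outside the rule, had 1.67 and 1.64 against 1.18 and 1.17 FPKM, shares no exonic base with another gene and had a limma adjusted p of 0.21.

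**Figure D4:**
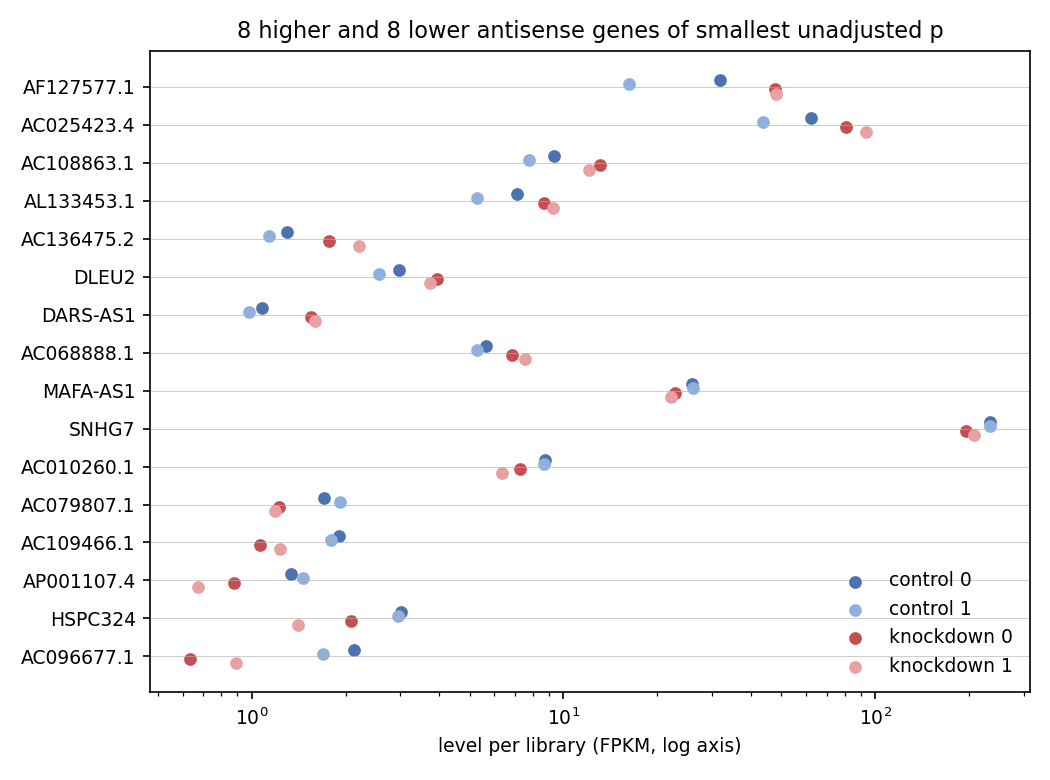
Level in each library (FPKM, log axis) of the 8 higher and 8 lower antisense genes of smallest unadjusted p, ordered by log2 change. Points are libraries, and in all 16 genes the 2 knockdown libraries lie on one side of the 2 control libraries, as the choice by p favours.

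On the higher side, several genes lay wholly inside exons of a coding gene. AC025423.4 lies inside MDM2, which encodes the ubiquitin ligase that keeps p53 low, on chromosome 12 from 68841288 to 68843237, and its 785 exonic bases are all exonic in MDM2 and outside its coding sequence. It had 62.2 and 43.8 FPKM in control and 80.8 and 93.6 FPKM in knockdown libraries, a ratio of 1.64 and a limma adjusted p of 0.19. MDM2 had 145 and 134 FPKM in control and 171 and 199 FPKM in knockdown libraries, and limma gave an adjusted p of 0.19. The order of the 4 libraries was the same in both genes, with control replicate 1 lowest and knockdown replicate 1 highest.

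AF127577.1 lies inside NRIP1, a nuclear receptor corepressor gene, on chromosome 21 from 14961309 to 14964233, again with every exonic base in an exon of the partner. It had 31.9 and 16.2 FPKM in control and 47.7 and 48.0 FPKM in knockdown libraries, while NRIP1 had 44.8, 46.4, 47.3 and 50.7 FPKM. The antisense gene thus differed between the control libraries by more than its partner differed across all 4. Its ratio was 1.99 and its log2 change 1.04 ± 0.26 (SE), with a limma adjusted p of 0.20. Without control replicate 0 it was called, at a log2 change of 1.5 and a limma adjusted p of 0.0051. Leaving out control replicate 1 in its place gave a log2 change of 0.57 (limma adjusted p of 0.21). Over all settings its adjusted p ran up to 0.82. AC108863.1 inside PLEKHA2, a gene for a phosphoinositide-binding adaptor, had 9.34 and 7.73 against 13.1 and 12.1 FPKM, and PLEKHA2 had a log2 change of -0.05. AL133453.1 inside ERO1A, the oxidase gene of disulfide formation in the endoplasmic reticulum, had 7.08 and 5.28 against 8.67 and 9.27 FPKM, and ERO1A had a log2 change of 0.04. In AC025423.4, AF127577.1, AC108863.1 and AL133453.1 control replicate 1 was the lowest library.

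Other members on this side shared under 25% of their exonic bases with opposite coding genes. DLEU2 hosts a pair of microRNAs that are lost with it in chronic lymphocytic leukaemia, and spans the ubiquitin ligase gene TRIM13 on chromosome 13 from 49982552 to 50125720. It had 2.97 and 2.55 FPKM in control and 3.93 and 3.73 FPKM in knockdown libraries, a ratio of 1.39 with a limma adjusted p of 0.19. Both knockdown libraries were higher, and TRIM13 had 25.5, 24.6, 26.5 and 27.0 FPKM. DARS-AS1 had 1.08 and 0.980 against 1.55 and 1.59 FPKM, while DARS, the aspartyl-tRNA synthetase gene head-to-head with it, had 111, 109, 110 and 113 FPKM. AC068888.1, tail-to-tail with the translation initiation factor gene EIF4B, had 5.63 and 5.28 against 6.83 and 7.50 FPKM (limma adjusted p of 0.19). AC136475.2, inside the antiviral gene IFITM2 with no exonic base shared, had 1.30 and 1.13 against 1.78 and 2.2 FPKM, and IFITM2 had 555 and 494 against 459 and 459 FPKM. Each of these members was higher in the knockdown libraries without overlap, and IFITM2 lower.

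Agreement with the overlapping coding gene was examined in pairs. A coding gene on the other strand overlapped 447 members, of which 225 lay within it, 106 were tail-to-tail, 92 head-to-head and 24 spanned it; 43 members had no such partner. The partner was tested for 381 members. Members stood at a median of 0.210 of the partner's level, and 52 exceeded it. The log2 change had the same sign in 215 of the 381 pairs, or 56.4%, with a Pearson r of 0.21 across pairs, which share libraries. The difference between the 2 knockdown libraries, which share their treatment, had the same sign in 227 pairs, or 59.6%, with an r of 0.24, and that between the control libraries in 194, or 50.9%, with an r of 0.03. In both measures the knockdown contrast lay between the control and the knockdown replicates, and the cause of these differences was not tested. With the nearest tested coding gene that does not overlap, the same sign stood in 230 of 490, or 46.9%, with an r of 0.05. By arrangement the share was 58.5% of 82 head-to-head, 53.5% of 86 tail-to-tail and 57.4% of 204 contained pairs, and 4 of 9 spanning pairs. Coding starts within 1 kb gave 54.5% of 132.

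The pairs were also divided by the share of the antisense gene's exonic bases that lay in exons of any opposite-strand coding gene, the partner included. Where every exonic base of the antisense gene was shared, the sign was the same in 49 of 77 pairs, or 63.6%, with an r of 0.47, or 0.37 without AC025423.4, and the level relative to the partner had a median of 0.495. Where over 0 and under 25% was shared, the sign was the same in 64 of 110 pairs, or 58.2%, with an r of 0.10 and a median relative level of 0.111. Pairs that shared no exonic base with each other had the same sign in 23 of 40, with an r of 0.09. Across log2 levels, r between member and partner was 0.55 in the fully shared pairs and 0.07 in those under 25%. The same was asked of replicates of 1 group, which differ in no treatment. In fully shared pairs the difference between the control libraries had the same sign in 33 of 77, with an r of 0.11, and that between the knockdown libraries in 46 of 77, with an r of 0.31. In pairs that share under 25% the knockdown libraries gave 69 of 110, or 62.7%, with an r of 0.20. The control libraries gave 62 of 110, or 56.4%, with an r of -0.0023. In these pairs under 25% the values for the knockdown contrast lay between those of the control and the knockdown replicates. In fully shared pairs they lay above both, at 49 of 77 against 33 and 46, and an r of 0.47 against 0.11 and 0.31. The differences between these groups of pairs were not tested.

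**Figure D5:**
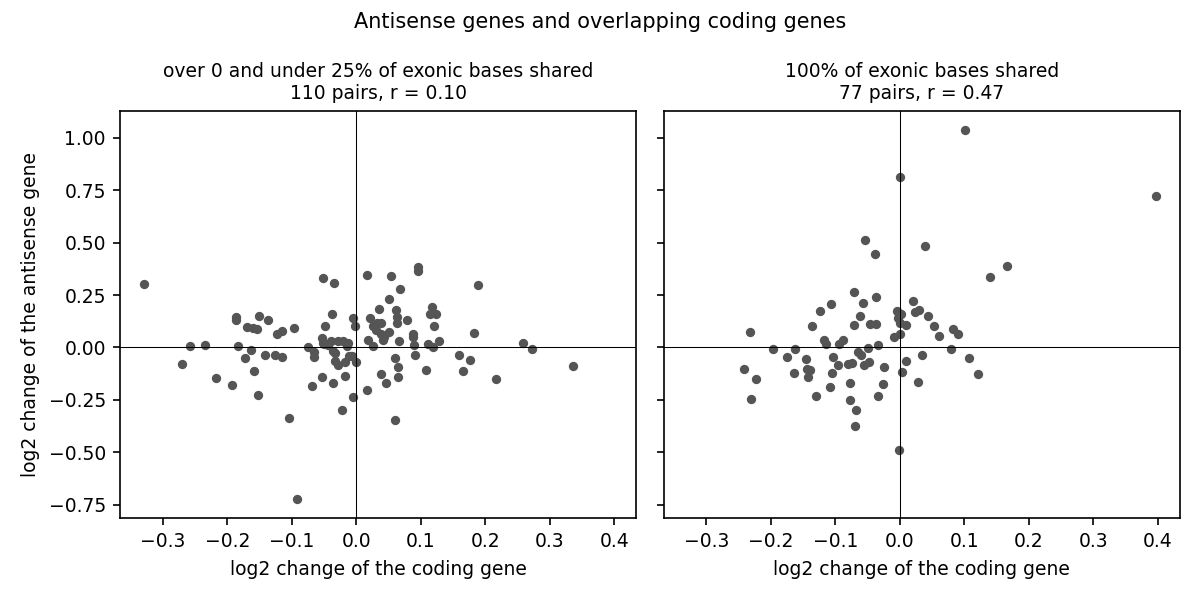
Log2 change of the antisense gene against that of the overlapping coding gene, both on the log2(FPKM + 1) scale. In the first panel over 0 and under 25% of the antisense gene's exonic bases lie in exons of opposite-strand coding genes (110 pairs, r = 0.10). In the second panel all of them do (77 pairs, r = 0.47). Each point is 1 pair, and the point farthest right in the second panel is AC025423.4 with MDM2.

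In 8 pairs both genes had an unadjusted limma p under 0.05, of which 5 stood on the same side. Among the 381 pairs 55 members and 55 partners had such a p, so that a partner had one in 14.5% of pairs whose member did, against 14.4% of all pairs. Besides those with MDM2, EGFL7 and SERINC5, they were SMAD1-AS1 with SMAD1, a transducer of BMP signals, and AC090152.1 with TOX, a gene for an HMG box factor. SMAD1-AS1 had 13.9, 12.7, 15.5 and 16.3 FPKM and SMAD1 18.1, 16.6, 18.9 and 21.0 FPKM, and 78.2% of the antisense gene's exonic bases lie in SMAD1 exons. AC090152.1 had 6.09, 6.23, 7.09 and 8.57 FPKM and TOX, head-to-head with it, 6.77, 7.02, 7.80 and 8.21 FPKM. All 4 of these genes were higher in both knockdown libraries, at limma adjusted p of 0.21 to 0.29.

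The other 3 pairs stood on opposite sides. They were AC136475.2 with IFITM2, AP000787.1 with the stress-response gene SESN3, and AC092755.2 with BNIP2, which encodes a BCL2-interacting protein. AP000787.1 had 1.07 and 1.10 FPKM in control and 1.60 and 1.54 FPKM in knockdown libraries, and SESN3 had 2.79 and 3.0 against 2.12 and 2.08 FPKM. The antisense gene spans SESN3 and shares 93 of its 5320 exonic bases with it. AC092755.2 had 11.9 and 11.0 against 8.84 and 10.3 FPKM, while BNIP2 had 42.8 and 42.0 against 50.2 and 47.3 FPKM, although 70.6% of the antisense gene's exonic bases lie in BNIP2 exons. With the GC trend removed the log2 change of AC092755.2 moved from -0.24 to -0.08, and its unadjusted limma p, 0.027 in the fit as reported, became 0.25. That p was 0.14 without control replicate 0 and 0.12 without knockdown replicate 0. Groups did not overlap in any of the 6 genes of these pairs.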

How the data were processed

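Polyadenylated RNA of 2 control and 2 HAL7 knockdown libraries was sequenced. The deposited table gives 1 value per library, read as FPKM made by the authors with Cuffdiff, since the file header names its ID column as Cuffdiff does. The submitters' processing notes list hg19, TopHat2 2.0.14, Bowtie2 2.2.5 and Cuffdiff 2.2.1. The sources used here do not give options, annotation or strand setting.

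Gene types, exons and overlaps came from GENCODE release 29 on GRCh38, matched by Ensembl ID without version, so overlaps may differ from those in the annotation the authors used. Of the 43450 IDs, 3292 had no match. Partners were the opposite-strand coding genes of longest overlap. In R 4.3.3, limma 3.58.1 was fitted on log2(FPKM + 1) over 12935 genes (those averaging 1 FPKM or more, plus HAL7) with a variance trend; p-values are two-sided, with Benjamini-Hochberg adjustment and a threshold of 0.05. The fit was tested on simulated data. An exact test of 2 libraries against 2 cannot go below p = 0.333. Depth from value steps gives counting precision only.

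The class, and with it the members and lists, was chosen with earlier results of these data known, although the cut on the mean does not use the contrast. Named are HAL7, the 12 highest members, the 8 of smallest p per direction, pairs with both unadjusted p under 0.05, 3 genes on each side of the cut, and their partners; some genes under this rule are given in counts only, and genes named outside it were chosen after their values were seen. Alternatives covered pseudocount, filters, scaling, variance trend, GC trend, replicate block and left-out libraries.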

Additional observations from a re-analysis of the deposited data

How the results depend on the processing

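The count of antisense genes past a limma adjusted p of 0.05 was 0 under every alternative except 2. Without control replicate 0 it was 1, AF127577.1 at a log2 change of 1.5, and with the replicate number as a block it was 1, AC090971.1 at 0.81 with an adjusted p of 0.030 (0.030 to 0.91 over all settings); leaving out each library gave 0 to 1. The labels do not say that a replicate number marks a shared culture, the correlation of same-numbered differences was 0.12, and the replicate block called 0 other members. Unadjusted limma p under 0.05 was reached by 32 of the 175 members with a mean of at least 5 FPKM. Fewer genes were tested there, and the shares were 18.3% of members and 18.2% of all genes tested. Of the 65 members that share no exonic base with another gene, 7 reached it, or 10.8%, against 16.6% of all genes tested. That set was chosen after seeing the data. The members' share, below that of all genes as reported, was above it with no variance trend (17.8% against 15.9%), with no filter on low values (10.4% against 7.05%) and without control replicate 0 (12% against 11.3%). The median log2 change was 0.013 with quantile normalization and 0.013 with the GC trend removed, and -0.0097 in that set of 65; leaving out a library gave -0.0074 to 0.0052, so its sign is not settled. Same-sign pairs numbered 86 of 135 at 5 FPKM, 23 of 40 that share no exonic base, and 204 to 221 of 381 without a library. HAL7 stayed on the lower side in every setting run, at -0.60 to -0.07.

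Of 574 gene and setting combinations over 40 named genes, 563 kept their direction. The others were in genes near 0. Genes chosen for a small p in these same data were among the 40. Where the groups do not overlap, leaving out 1 library cannot change the direction, so the count is a description and no test of robustness. Leaving out a library gave ZFAS1 -0.019 (without control replicate 0) to 0.16, AL590133.2 -0.085 to 0.082 (control replicate 1; 0.02 without knockdown replicate 1), AL928654.2 -0.18 to 0.045 (control replicate 1), AL133415.1 -0.067 to 0.0057 (knockdown replicate 1), LINC00852 -0.049 to 0.019 (control replicate 0; 0.0096 without knockdown replicate 1) and RNASEH1-AS1 -0.0052 (knockdown replicate 1) to 0.10. Quantile normalization gave AL590133.2 0.0023 and LINC00852 0.00089, and median centring gave AL590133.2 0.0047. The cause was not tested.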

Other observations

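Some members varied within a group as much as between groups. AC016595.1, whose exonic bases all lie in coding sequence of the homeobox gene IRX1, had 48.3 and 42.2 FPKM in control and 27.0 and 44.2 FPKM in knockdown libraries, and IRX1 had 15.0, 15.7, 14.5 and 14.7 FPKM. SCARNA9, the gene of a small Cajal body RNA, had 4.51, 5.31, 4.70 and 9.65 FPKM. AC090971.1, within TMOD3, had 2.53 and 1.45 FPKM in control and 5.60 and 3.05 FPKM in knockdown libraries, with replicate 0 above replicate 1 in both groups. RNASEH1-AS1, head-to-head with a gene for an RNase H enzyme, the activity on which GapmeRs rely, had 3.56, 3.53, 3.53 and 3.88 FPKM. AL136181.1, head-to-head with the terminal transferase gene DNTT, had 1.47, 1.25, 1.09 and 1.16 FPKM, with both knockdown libraries below both control libraries. These 5 genes were chosen after their values were seen.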
